A study of Mus musculus with 10 samples.

Results

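The 10 nicotinic acetylcholine receptor subunit genes Chrna2, Chrna3, Chrna4, Chrna5, Chrna7, Chrna10, Chrnb1, Chrnb2, Chrnb4 and Chrne were followed on whole-transcript arrays of the prostates of 10 male TRAMP mice. They were chosen by name, as genes whose platform symbol equals one of these, and are 10 of 19938 genes with a probe set of their own. Each was read by 1 probe set, with no filter on level. In this model the probasin promoter, active in prostate epithelium, drives a viral T antigen, so all mice of both groups were prone to prostate tumours and no group lacked the transgene. Starting at 8 to 9 weeks of age, the water group (5 mice) had plain tap water, and the nicotine group (5 mice) had 250 µg/ml of nicotine, as the tartrate salt, dissolved in it. The sources used here do not give the strain background, the length of treatment or the age at collection.

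Nicotinic receptors are ion channels of 5 subunits that open when acetylcholine, or nicotine, binds between subunits. In neurons alpha subunits such as the product of Chrna4 combine with beta subunits such as that of Chrnb2, and receptors of Chrna3 with Chrnb4 carry fast transmission in autonomic ganglia. Chrna5 is an accessory subunit, Chrna7 can form a channel by itself, Chrna10 is best known from cochlear hair cells, and Chrnb1 and Chrne belong to the receptor of the neuromuscular endplate. The chaperones Ric3 and Tmem35a assist the assembly of some of these channels.

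The mice differed in cell type markers, and these values stand beside the subunit results. Neuroendocrine markers (11 of 12 listed genes measured) had a mean level of 9.59 (log2 scale) in mouse nicotine 1 and of 10.1 in mouse nicotine 3, against 6.93 to 7.56 in the water mice and 7.10 to 7.50 in the other 3 nicotine mice. Skeletal muscle markers (12 of 12) had a mean of 9.87 in nicotine 1, and the other 9 mice ranged from 7.20 to 7.59. Prostate luminal markers (8 of 10), which check the labelled tissue, averaged 11.2 to 11.4 in water mice, 10.4 in nicotine 1 and 7.27 in nicotine 3. Their member Pbsn, the probasin gene, was at 5.08 in nicotine 3 and from 9.17 to 12.2 in the others, so the prostate secretory signal was low in that mouse. Seminal vesicle markers (9 of 9) ranged widely within both groups, from 7.30 to 13.2 in water mice and from 5.93 to 12.7 in nicotine mice. With their mean as a covariate the difference went from 0.75 to 0.47 for Chrna4, from 0.58 to 0.32 for Chrna5 and from 0.076 to 0.0032 for Chrnb4, with limma adjusted p of 0.898, 0.898 and 0.994. It went from 1.08 to 0.75 for Chrnb2, from 0.16 to 0.11 for Chrna7 and from 0.11 to 0.047 for Chrna2. For Chrna3 it went from -0.093 to -0.18 and for Chrnb1 from -0.018 to 0.028. Chrna10 (0.056 to 0.059) and Chrne (0.026 to 0.026) hardly changed. The marker means of nicotine 3 (5.93) and nicotine 1 (6.99) were below those of all water mice. Water 1 and water 2 had marker means of 7.30 and 7.42. Chrnb2 was at 7.34 and 7.49 in these water mice, against 9.45 in nicotine 1 and 10.33 in nicotine 3. Chrna5 was at 5.39 and 5.46 there, against 6.20 and 7.32. The part of seminal vesicle content in the subunit differences, apart from nicotine 1 and 3, was not tested. These are bulk tissue values, in which fewer cells of a type and less RNA per cell cannot be told apart.

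The 3 subunit genes with the widest range over the mice were Chrna4, Chrnb2 and Chrna5, and each was highest in nicotine 3. Their promoters are shown because these genes moved together in that mouse, beside that of Chrna3, which neighbours Chrna5 and Chrnb4 on chromosome 9 and was not high there. The sequences are the 250 bases before a RefSeq start site in assembly GRCm38.p6, given 5′ to 3′ on the gene's strand, with matches to the searched motifs in capitals. Chrna5 has 2 start sites in that table, and the second is printed.
Chrna4, chr2:181039178-181039427, minus strand: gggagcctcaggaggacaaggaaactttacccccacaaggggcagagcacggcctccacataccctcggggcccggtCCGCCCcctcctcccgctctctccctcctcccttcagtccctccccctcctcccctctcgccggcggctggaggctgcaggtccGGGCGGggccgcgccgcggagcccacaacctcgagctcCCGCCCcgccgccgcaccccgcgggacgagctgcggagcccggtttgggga
Chrnb2, chr3:89764633-89764882, minus strand: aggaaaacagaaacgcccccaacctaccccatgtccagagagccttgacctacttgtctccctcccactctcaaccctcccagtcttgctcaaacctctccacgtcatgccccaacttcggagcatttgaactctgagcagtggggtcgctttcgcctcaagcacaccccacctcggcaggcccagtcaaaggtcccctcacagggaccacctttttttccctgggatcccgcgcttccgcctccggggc
Chrna5, chr9:54981238-54981487, plus strand: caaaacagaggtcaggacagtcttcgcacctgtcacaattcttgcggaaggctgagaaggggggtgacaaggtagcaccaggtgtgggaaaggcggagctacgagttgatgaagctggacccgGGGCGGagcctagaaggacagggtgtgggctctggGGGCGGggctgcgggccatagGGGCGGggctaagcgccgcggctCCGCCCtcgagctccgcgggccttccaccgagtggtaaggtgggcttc
Chrna3, chr9:55026563-55026812, minus strand: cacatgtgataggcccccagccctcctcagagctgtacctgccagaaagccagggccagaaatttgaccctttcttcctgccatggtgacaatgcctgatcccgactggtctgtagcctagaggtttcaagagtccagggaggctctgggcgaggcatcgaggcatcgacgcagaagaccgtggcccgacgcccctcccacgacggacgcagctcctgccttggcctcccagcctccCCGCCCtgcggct

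All capitals above are GC boxes, the letters GGGCGG on either strand, a motif bound by Sp1-type factors. The Chrna4 window holds 3 of them, the printed Chrna5 window 4, the Chrna3 window 1 and the Chrnb2 window 0. The table has 10 windows for 9 of the subunit genes; 5 of the 10 windows have a GC box, and 32.7% of all 32851 windows of this length do. The other Chrna5 window, chr9:54980630-54980879, has 0. The E-box CAGCTG occurs in the windows of Chrnb4 and Chrne, and in 13.0% of all windows. The other motifs searched on both strands, TCAGCACC (the left arm of the neuronal silencer element RE1) and TGACGTCA (the cAMP response element), were in none of the 9 genes' windows and in 1.32% and 1.55% of all windows. The 3 genes that were high in nicotine 3 have no searched motif in common in these windows.

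Chrnb2, the most widely used neuronal beta subunit, was high in both mice with high neuroendocrine markers. Its level in the water mice was 7.34, 7.49, 7.39, 7.50 and 7.41 log2 units in mice 1 to 5. In the nicotine mice it was 9.45, 7.59, 10.33, 7.54 and 7.62. Nicotine 3 lay 7.48-fold and nicotine 1 lay 4.07-fold above the water mean, and the other 3 nicotine mice lay just above the highest water mouse. The groups did not overlap.

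The difference for Chrnb2, nicotine minus water, was 1.08 ± 0.53 log2 units (SE), from 7.43 ± 0.071 (SD, n = 5) to 8.51 ± 1.30 (SD, n = 5). It did not pass the test across all genes (limma, adjusted p = 0.514), and its 95% interval ran from -0.12 to 2.27. The exact two-sided permutation p, unadjusted, was 0.00794, the smallest that 252 arrangements can give. Every gene whose groups do not overlap has this value, so it adds nothing to the lack of overlap. Of the 10 subunit genes it was the only one whose groups did not overlap, where 1.63% of all genes did not overlap in the higher direction, 2.33% in the lower and 3.95% in either. Without nicotine 1 and 3 the difference was 0.16 ± 0.055 (SE), with an interval from 0.034 to 0.28 (limma adjusted p = 0.275; exact permutation p = 0.0357, where 0.0179 is the smallest possible). The groups did not overlap there either, as for 3.52% of all genes in the higher direction, 5.19% in the lower and 8.71% in either. Chrnb2's lack of overlap held after renewed quantile normalization and after centring the arrays, where the differences among these 8 mice were 0.18 and 0.19. In the same 8 mice the proliferation markers (9 of 10 measured) averaged 9.29 to 9.47 in water and 9.70 to 9.77 in nicotine mice. All 9 were higher at an unadjusted limma p under 0.05, where 5.21% of all genes were, and 7 of them did not overlap. Of the 8 macrophage markers, 5 were lower at that p, where 7.22% of all genes were, and 4 did not overlap. Of the 12 skeletal muscle markers, 3 were higher at that p and 4 did not overlap in the higher direction. Of the 6 endothelial markers, 3 were lower at that p and 0 did not overlap. The part of these markers in the Chrnb2 difference was not tested. Adar, a gene that overlaps Chrnb2 in the RefSeq table, was at 8.91 in nicotine 1 and 8.97 in nicotine 3, against 8.94 to 9.36 in water mice, so it was not high with Chrnb2 there. In the other 3 nicotine mice Adar was at 9.26 to 9.65. Without nicotine 1 and 3 its difference was 0.26 ± 0.12 (SE, limma adjusted p = 0.401), in the same direction as that of Chrnb2. The interval ran from 0.0011 to 0.51, and the groups overlapped. A link between the 2 genes was not tested.

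Chrna4, the usual partner of Chrnb2 in brain, was high in nicotine 3 but not in nicotine 1. Its levels in water mice 1 to 5 were 7.11, 7.53, 7.07, 7.28 and 7.26. In the nicotine mice they were 7.40, 7.43, 10.36, 7.45 and 7.37. Nicotine 3 lay 8.63-fold above the water mean, the largest excess over it of any of the 10 genes in any mouse, while the other 4 nicotine mice lay within the range of the water mice. The difference was 0.75 ± 0.54 log2 units (SE; limma adjusted p = 0.535; exact permutation p = 0.0635), and 0.17 ± 0.094 without nicotine 1 and 3.

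Chrna5, the accessory subunit, was high in both mice, in the same order as Chrnb2. Water mice 1 to 5 had 5.39, 5.46, 5.25, 5.36 and 5.17. Nicotine mice 1 to 5 had 6.20, 5.26, 7.32, 5.36 and 5.36, so nicotine 3 lay 3.99-fold and nicotine 1 lay 1.84-fold above the water mean. The other 3 nicotine mice overlapped the water mice. The difference was 0.58 ± 0.36 (SE; limma adjusted p = 0.521; exact permutation p = 0.230) and was 0.0018 ± 0.070 without nicotine 1 and 3.

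Chrna7, the subunit of homomeric receptors, was higher in nicotine 3 by a smaller step. That mouse had 7.43, against 6.59 to 6.78 in the water mice and 6.63 to 6.80 in the other 4 nicotine mice, 1.67-fold above the water mean. Nicotine 1, at 6.64, lay among the water mice. The difference was 0.16 ± 0.14 (SE; limma adjusted p = 0.596; exact permutation p = 0.397).

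Chrna2, a neuronal alpha subunit of restricted expression, was instead highest in nicotine 1. It stood at 6.55 there, 1.42-fold above the water mean, while the remaining 9 mice had 5.87 to 6.13. Chrna10 ranged only from 5.83 to 6.13 over all mice, with its highest value in nicotine 1. The differences were 0.11 ± 0.11 (SE) for Chrna2 and 0.056 ± 0.061 for Chrna10, with limma adjusted p of 0.630 and 0.648. The mean levels of these genes and of Chrna5 fell in the lowest 25% of the array (under 6.55), and the deposited table has no detection calls, so a level there may be background.

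**Figure D1:**
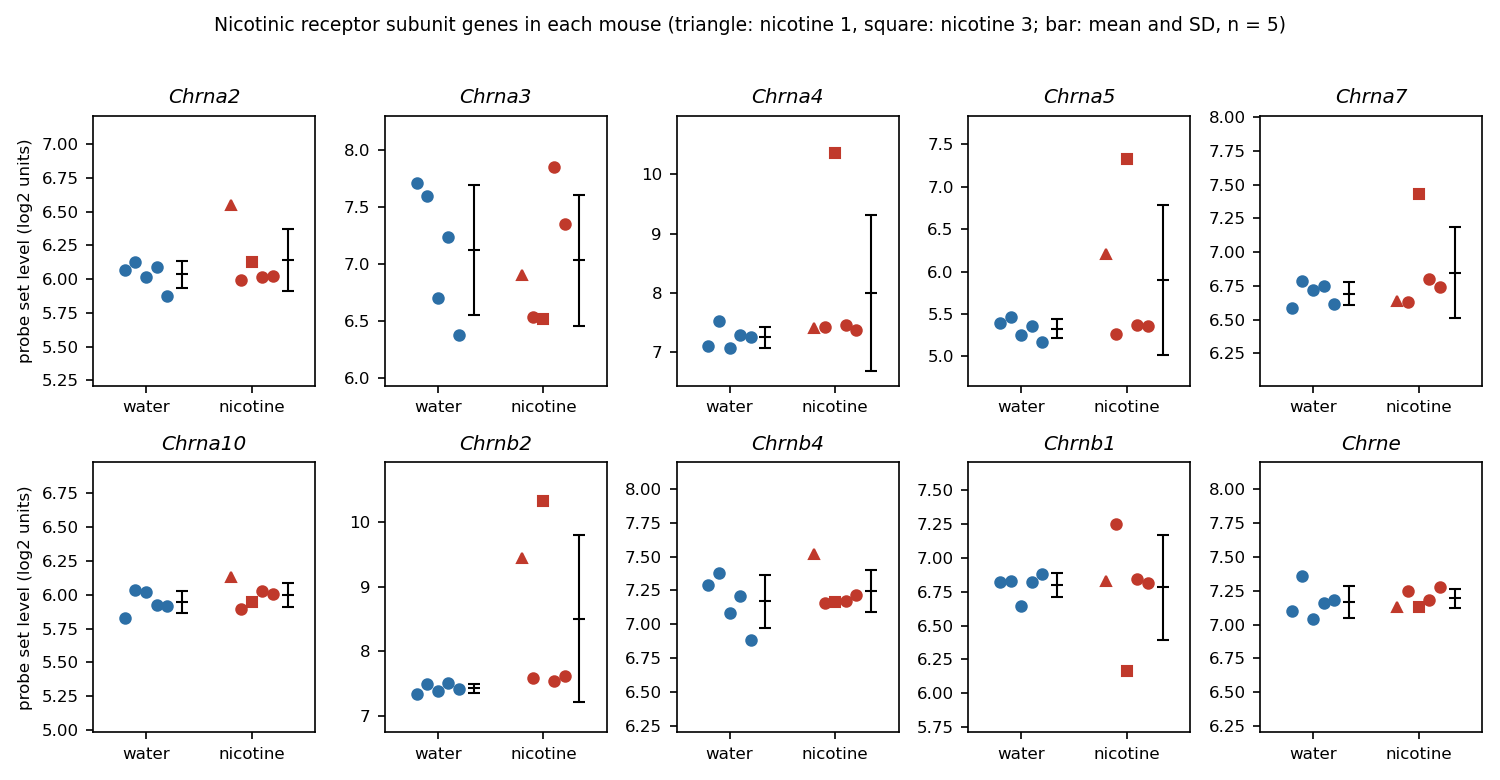
Level of each of the 10 subunit genes in log2 units of the deposited values (vertical axis, a separate scale in each panel), with 1 point per mouse, water in blue and nicotine in red, and the mean and SD (n = 5) beside each group. Nicotine 3 (square) is apart from all other mice for Chrna4, at 10.36, and nicotine 1 (triangle) and nicotine 3 for Chrnb2 at 9.45 and 10.33, while Chrna3 is spread from 6.38 to 7.71 among the water mice.

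Over 1 log2 unit above the water mean, nicotine 3 had 3 of the 10 subunit genes (Chrna4, Chrnb2 and Chrna5), where 9.16% of all genes were that high in this mouse. Nicotine 1 had 1 of 10 (Chrnb2), where 4.65% of all genes were that high. Chrnb2 alone was past this step in both mice, as were 2.97% of all genes. Nicotine 3 also stood out in the opposite direction for Chrnb1, described below with the muscle subunits. Proliferation markers (9 of 10 measured) were also high in nicotine 1 and nicotine 3, with means of 10.5 and 11.2. They averaged 9.29 to 9.47 in water mice and 9.70 to 9.77 in the other 3 nicotine mice. The part of the neuroendocrine and proliferation markers in the subunit values was not tested.

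Chrna3 and Chrnb4, the ganglionic pair, were not high in nicotine 3. Chrna3 in water mice 1 to 5 was 7.71, 7.60, 6.71, 7.23 and 6.38. In nicotine mice 1 to 5 it was 6.90, 6.53, 6.52, 7.86 and 7.35. Low and high mice occurred in both groups, and nicotine 3, where Chrna4 and Chrnb2 were highest, had one of the lowest values. The SD among water mice was 0.57, larger than or equal to that of 99.7% of all genes, and it was 0.57 among nicotine mice too. The difference was -0.093 ± 0.33 (SE; limma adjusted p = 0.901; exact permutation p = 0.802), with an interval from -0.84 to 0.65, so a difference of that size in either direction could not be told from the spread between mice.

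Chrnb4 varied less, from 6.88 to 7.38 in water mice and from 7.16 to 7.52 in nicotine mice. Its lowest value was in water 5, the mouse with the lowest Chrna3, and its highest was in nicotine 1, above all water mice. Its difference was 0.076 ± 0.11 (SE; limma adjusted p = 0.725). Chrna5, Chrna3 and Chrnb4 lie side by side on chromosome 9, and Chrna5 and Chrna3 overlap in the RefSeq table, yet of these 3 genes Chrna5 alone was more than 1 log2 unit above its water mean in nicotine 3, where Chrna3 was 0.60 below the water mean and Chrnb4 was at it (a difference of -0.0040).

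The genes whose profile over the 10 arrays was nearest to each of the widest-ranging subunits were found by the mean absolute difference between centred log2 values. Nearest to Chrnb2 were Syt9 (0.0634), Hmgcll1 (0.0737), Grm8 (0.0791), Pcdh10 (0.0809) and Brsk2 (0.0827). Syt9 encodes a synaptotagmin, a calcium sensor of vesicle release, and Grm8 a metabotropic glutamate receptor. Syt9 was 2.13 log2 units above its water mean in nicotine 1 and 2.80 above it in nicotine 3.

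Nearest to Chrna4 were Frrs1l (0.0700), a factor of AMPA receptor assembly, Apc2 (0.0759), the glutamate receptor gene Grm5 (0.0826), Olfm3 (0.0877) and the desmosomal cadherin gene Dsc3 (0.0877). All 5 were 2.80 to 3.13 log2 units above their water mean in nicotine 3 and at most 0.21 above it in nicotine 1. Nearest to Chrna5 were Tro (0.0648), Simc1 (0.0661), the neuronal serpin gene Serpini1 (0.0673), Tram1l1 (0.0691) and the adenylate cyclase gene Adcy2 (0.0708), each with a larger value in nicotine 3 than in nicotine 1. These 15 genes were selected for their likeness to the subunits, so their values are a description.

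For Chrna3, added after its values were seen, the nearest were Sncg (0.13), a synuclein of peripheral neurons, Npy (0.17), the neuropeptide Y gene of sympathetic nerves, Ibsp (0.25), Prxl2a (0.26) and Htr3b (0.26), a serotonin-gated channel subunit. Npy in water mice 1 to 5 was 9.82, 9.59, 8.77, 9.52 and 8.31, and in nicotine mice 9.10, 8.69, 7.99, 9.69 and 9.51. Water 5, water 3, nicotine 2 and nicotine 3 were the lowest 4 mice in both Chrna3 and Npy. The noradrenaline synthesis genes Th and Dbh, also picked after their values were seen, were likewise low in water 5 and nicotine 2 and high in nicotine 4. In nicotine 3, where Chrna3 was low, Th was at 7.08 (water mean 7.33) but Dbh was at its water mean (7.09 against 7.08). Other autonomic neuron markers were high in nicotine 3: Phox2a at 7.34, and Prph and Stmn2 at 1.74 and 3.05 log2 units above the water mean.

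**Figure D2:**
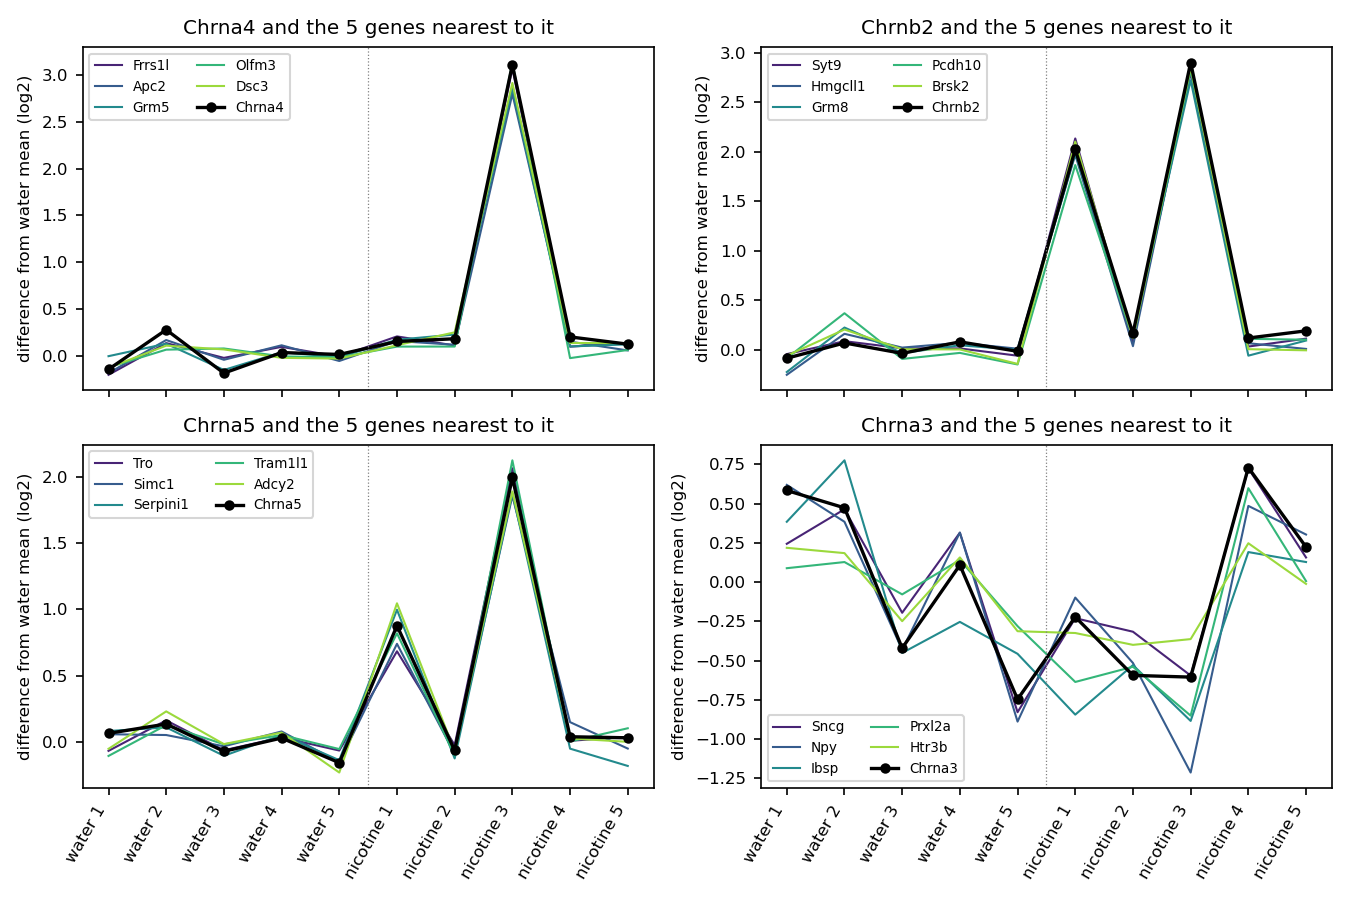
Difference from each gene's water mean in log2 units (vertical axis) in each of the 10 mice (horizontal axis), for Chrna4, Chrnb2, Chrna5 and Chrna3 (black, with points) and the 5 genes nearest to each (coloured lines); lines only join values of 1 gene, since mice have no order. The Chrna4 set peaks in nicotine 3 alone, the Chrnb2 and Chrna5 sets in nicotine 1 and nicotine 3, and the Chrna3 set varies among water mice as well.

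The autonomic neuron markers (10 of 11 listed genes measured) averaged 7.14 to 7.87 in water mice, 7.53 to 7.94 in nicotine mice 2, 4 and 5, 7.63 in nicotine 1 and 8.44 in nicotine 3. In nicotine 3, 4 of the 10 were over 1 log2 unit above the water mean, among them the growth cone gene Gap43 (2.98 above) and Ecel1 (2.18 above). The nerve products Npy and Vip were in contrast at their lowest there, at 7.99 and 6.07. Water 5 was also low for both, at 8.31 and 6.10. Schwann cell markers (5 of 7) averaged 6.95 to 7.18 in water mice, 7.11 in nicotine 1 and 6.76 in nicotine 3. The part of nerve content in the Chrna3 values was not tested.

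The endplate subunits Chrnb1 and Chrne differed little between the groups. Chrnb1 was 6.65 to 6.88 in water mice and 6.83, 7.25, 6.16, 6.85 and 6.82 in nicotine mice 1 to 5. Nicotine 3 was the lowest of all mice and nicotine 2 the highest, and the other 3 lay among the water mice. Chrne stayed between 7.04 and 7.36 in all 10 mice. The differences were -0.018 ± 0.17 (SE) for Chrnb1 and 0.026 ± 0.066 for Chrne, with limma adjusted p of 0.964 and 0.861. The sign changed for Chrnb1, to 0.17 ± 0.098 without nicotine 1 and 3, and to 0.0073 and 0.017 with renewed quantile normalization and with centred arrays.

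The 6 other subunit genes include the remaining muscle subunits, and 2 of these were high in nicotine 1, the mouse with high skeletal muscle markers. Chrnd, the delta subunit of the endplate receptor, was at 8.16 in nicotine 1, against 5.96 to 6.35 elsewhere. Chrna1, its alpha subunit, was at 6.99 in nicotine 1, against 5.90 to 6.10 elsewhere. The endplate subunits Chrnb1 and Chrne, at 6.83 and 7.13 in nicotine 1, and the fetal gamma subunit Chrng, at 7.38, lay within the range of the water mice there. Chrna6, Chrna9 and Chrnb3 each varied by 0.15 to 0.23 log2 units over all mice. None of the 6 passed the test or an unadjusted p of 0.05 (limma adjusted p from 0.527 to 0.952), and 4 were positive, with a median difference of 0.017 against 0.0083 over all genes. All 12 skeletal muscle markers were over 1 log2 unit above the water mean in nicotine 1, among them Neb (2.58 above) and the fast myosin gene Myh4 (2.24 above), and their part in the Chrnd and Chrna1 values was not tested.

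Among genes of chaperones and Ly6-type proteins, which assist or modulate nicotinic receptors, the same mice stood apart. None of the 10 passed the test or an unadjusted p of 0.05, 5 were positive and 5 negative, and the median difference was 0.044 against 0.0083 over all genes. Ric3, a chaperone of Chrna7 receptors, was at 7.09 in nicotine 1 and 7.85 in nicotine 3, against 5.69 to 5.87 in water mice and 5.64 to 5.78 in the other nicotine mice. Lypd1 was at 8.81 and 9.74 in these mice, against 7.19 to 7.37 in water mice. Tmem35a, the assembly factor also called NACHO, was at 9.58 in nicotine 3 and 7.28 in nicotine 1, where water mice had 7.07 to 7.28.

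Thus Ric3 and Lypd1 were high in the same mice as Chrnb2 and Chrna5, and Tmem35a in the same mouse as Chrna4. Over 1 log2 unit above the water mean were 2 of the 10 genes in nicotine 1 and 4 in nicotine 3, where 4.65% and 9.16% of all genes were. A link of these genes with the subunit genes was not tested. Ly6h was high in nicotine 3 only, at 7.99, against 6.81 to 7.03 in the other 9 mice. Ly6e, a widely expressed Ly6 gene, had the opposite profile, with 10.21 in nicotine 3, 12.83 in nicotine 1 and 13.18 to 13.34 in the other 8 mice. Below all water mice were 4 of the 10 genes in nicotine 1 and 3 in nicotine 3, Ly6e among them in both. Of all 19938 genes, 6820 and 7331 were below all water mice in nicotine 1 and nicotine 3. The differences were 0.66 ± 0.41 (SE) for Ric3, 0.77 ± 0.48 for Lypd1 and 0.11 ± 0.085 for Lypd6b, the members with the smallest p, with limma adjusted p of 0.519, 0.521 and 0.543.

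**Figure D3:**
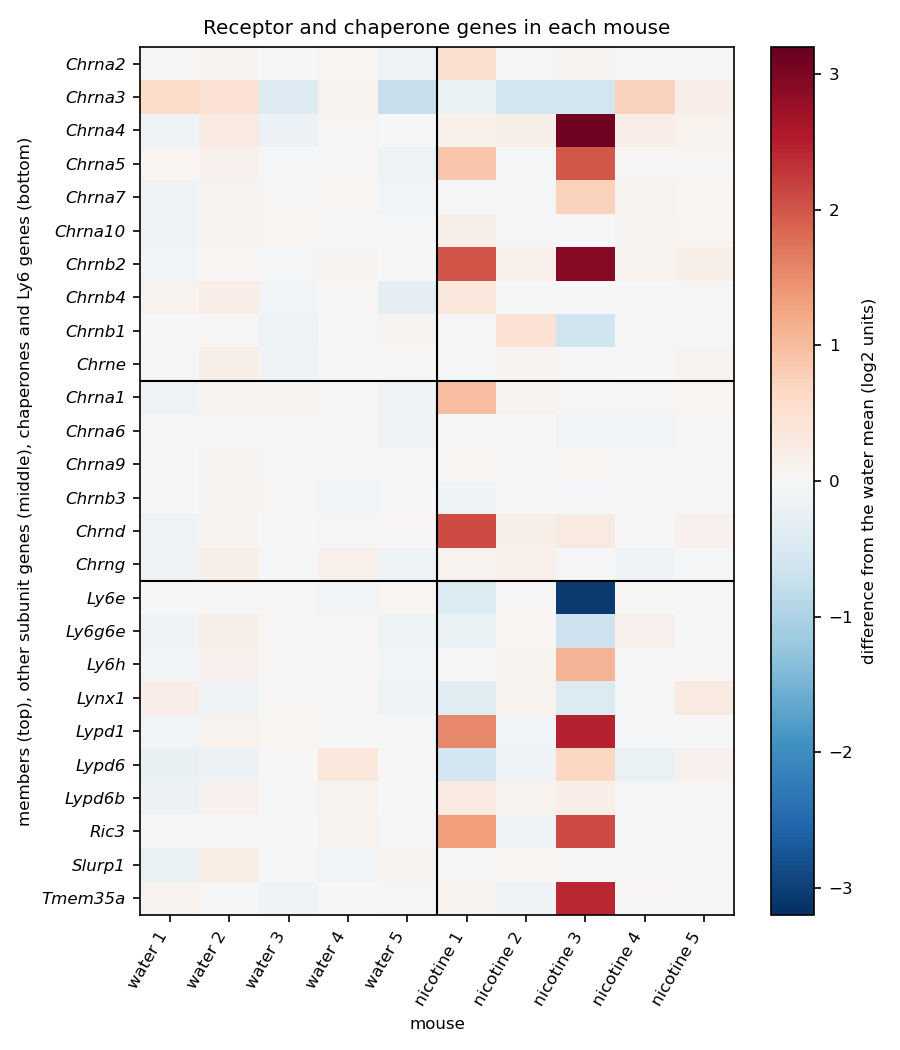
Difference from the water mean in log2 units (colour, red above and blue below) for the 10 subunit genes, the 6 other subunit genes and the 10 chaperone and Ly6 genes (vertical axis) in each of the 10 mice (horizontal axis). In nicotine 3 the highest values are those of Chrna4, Chrnb2, Lypd1, Tmem35a, Ric3 and Chrna5 and the lowest that of Ly6e, and in nicotine 1 the highest are those of Chrnd, Chrnb2, Lypd1 and Ric3.

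The supply of the ligand was followed in 11 of 12 listed genes of acetylcholine synthesis, transport and breakdown. None passed the test or an unadjusted p of 0.05, 6 were positive and 5 negative, and the median difference was 0.0083. The cholinergic neuron genes varied little: the acetylcholine synthase gene Chat ranged from 6.18 to 6.41 over all mice and the vesicular transporter gene Slc18a3 from 7.43 to 7.87. The cholinesterase genes were highest in nicotine 3, with Ache at 8.09 against 7.05 to 7.42 in the other 9 mice and Bche at 7.67 against 5.64 to 6.54. The choline kinase gene Chka (-0.76 ± 0.37 SE) and the choline transporter-like genes Slc44a1 (-0.50 ± 0.28) and Slc44a4 (-1.07 ± 0.66) had the smallest p, with limma adjusted p of 0.514, 0.514 and 0.519. Of the 11 genes, 1 (Slc44a1, lower) had groups that did not overlap, as for 2.33% of all genes in that direction. Without nicotine 1 and 3 it was again 1 (Slc44a1, lower), as for 5.19% of all genes. Slc44a4 was 3.75 log2 units below the water mean in nicotine 3, where the prostate luminal markers were low.

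Among the 5 muscarinic receptors, the other family of acetylcholine receptors, none passed the test or an unadjusted p of 0.05, and the median difference was 0.020. Chrm3, the subtype of gland and smooth muscle, was at 7.06 in nicotine 3, against 8.04 to 8.63 elsewhere. Chrm4 had a difference of 0.15 ± 0.10 (SE; limma adjusted p = 0.525), and Chrm1, Chrm2 and Chrm5 differed by 0.11 or less in size. Of the 5 endplate clustering genes none passed either. All 5 were positive, with a median of 0.070, where 10498 of all 19938 genes were positive. An unadjusted limma p under 0.05 was found for 1 (Lrp4, higher), as for 3.93% of all genes in that direction. The agrin receptor gene Lrp4 differed by 0.42 ± 0.18 (SE; limma adjusted p = 0.514) and its highest value, 8.75, was in nicotine 1.

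Taking the subunit genes as a group, 0 of 10 passed an adjusted p of 0.05 by limma and 0 of 10 had an unadjusted p under 0.05, where 0% and 9.24% of all genes did (3.93% higher and 5.31% lower). The smallest adjusted p over all genes was 0.514. The differences were positive in 8 of 10 subunit genes and in 10498 of all 19938 genes. Those of Chrna2, Chrna10, Chrnb4 and Chrne, all positive, were smaller than their SE. The median was 0.091 in the subunit genes, against 0.0083 over all genes. Without nicotine 1 and 3 again 0 passed, 1 (Chrnb2) had an unadjusted p under 0.05, where 12.4% of all genes did (5.21% higher and 7.22% lower), and the median was 0.051. The SD among nicotine mice was 18.4 times that among water mice for Chrnb2, 7.65 times for Chrna5 and 7.19 times for Chrna4. It was 4.41 times for Chrnb1, 3.90 times for Chrna7 and 2.35 times for Chrna2, and close to or below it for Chrna3, Chrna10, Chrnb4 and Chrne. Over all genes the median SD was also larger among nicotine mice, at 0.196 against 0.094 among water mice.

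**Figure D4:**
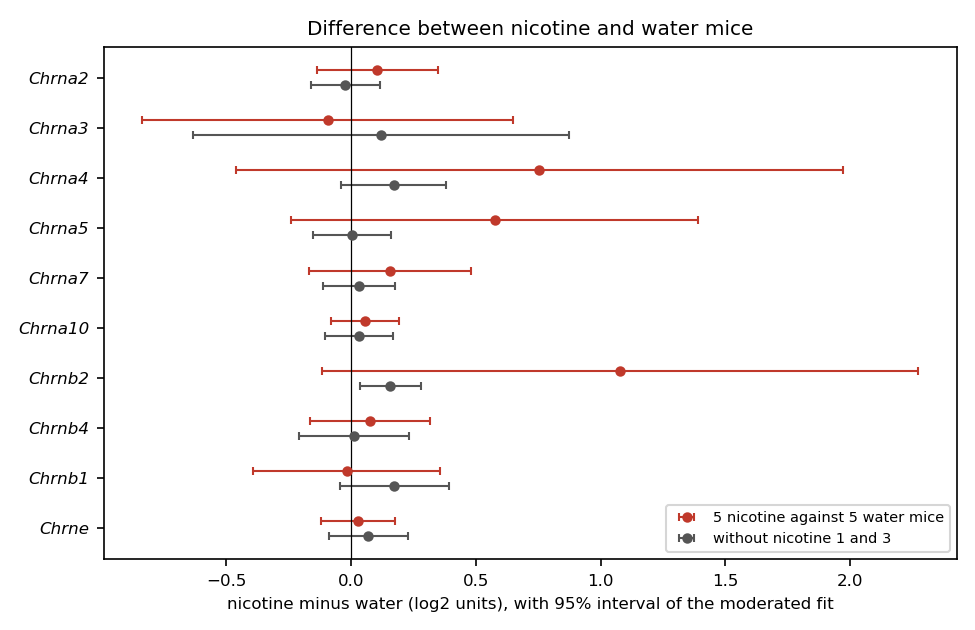
Difference between nicotine and water mice in log2 units (horizontal axis) for each of the 10 subunit genes (vertical axis), with the 95% interval of the moderated fit, for all mice (red) and without nicotine 1 and 3 (grey). All red intervals include 0; without these mice the Chrnb2 interval, 0.034 to 0.28, lies above 0, and the other 9 include 0.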

How the data were processed

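Trizol RNA of 10 prostates was amplified, labelled with biotin and hybridised to Affymetrix whole-transcript arrays, 1 per mouse, per the labels' protocols. The authors deposited a table of log2 values for 35556 probe sets, from 3.59 to 14.1, with array medians from 7.50 to 7.57. The scale was read from this range. The sources used here do not state the background correction, summarisation or normalization, and no scanner files or scan dates were used, so batches could not be checked.

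Of the probe sets, 21789 had 1 symbol in the platform annotation, which can be old, 1621 had several and 12146 were unnamed there. Per gene, the probe set with the highest mean was kept, giving 19938 genes. Nicotine was compared with water by limma 3.58.1 (R 4.3.3, lmFit and eBayes, two-sided, Benjamini-Hochberg over all genes), and each subunit gene also by an exact permutation test of the difference of means. Only the limma step was tested on simulated data. These were independent normal values with a shared SD per gene in both groups, so they do not show how the step behaves with outlying mice. Precision is limited by having 5 arrays in each group.

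The members, lists and alternatives, including leaving out nicotine 1 and 3, were chosen with earlier results of these data known. All 10 subunits and the 6 other subunit genes were named, with up to 3 genes per pathway list and 2 per marker list by smallest p, and the 5 genes nearest to each of the 3 widest-ranging members, leaving out predicted and clone names. Further names were added after their values were seen: the 5 genes nearest to Chrna3, and the genes described in the report as high or low in single mice, beside the members of the pathway lists. Some listed genes are not analysed here. RefSeq promoters, assembly GRCm38.p6, matched 9 of 10 members by symbol.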

Additional observations from a re-analysis of the deposited data

Results flagged for a closer look

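Within a group of 5 mice, a highest or lowest value was marked where its gap to the next value exceeded 0.71 of the group's range (Dixon's test), which chance does in about 1 of 20 groups. The check covered 75 genes named by rule or as the 5 nearest to Chrna3, which was added after its values were seen. It also covered 17 others named after their values were seen. In all, 184 groups were checked and 30 were marked: 17 by nicotine 3, 7 by nicotine 1 and 6 by a water mouse.

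Among the subunit genes, nicotine 3 stood apart for Chrna4 (10.36 against at most 7.45 in the other nicotine mice) and Chrna7 (7.43 against at most 6.80). Nicotine 1 stood apart for Chrna2 (6.55 against at most 6.12) and Chrnb4 (7.52 against at most 7.22). Water 3 was low for Chrnb1 (6.65 against at least 6.82). Chrnb2 and Chrna5 were not marked, since 2 mice of the group were high. Of the other subunit genes, nicotine 1 was high for Chrna1 (6.99) and Chrnd (8.16), and water 5 low for Chrna6 (5.26 against at least 5.40).

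The genes nearest to Chrna4 were marked in nicotine 3, as their selection implies: Frrs1l (9.95), Apc2 (9.98), Grm5 (9.75), Olfm3 (8.83) and Dsc3 (8.62). Of the genes nearest to Chrnb2, Pcdh10 was high in water 2 (6.44). Nicotine 3 was also high for Gap43 (10.56) and low for the luminal genes Fkbp5 (9.24) and Cldn10 (7.10) and the macrophage genes Cd163 (6.34) and Csf1r (8.06). Nicotine 1 was high for the muscle genes Neb (9.08) and Myh4 (8.27), and water 2 was high for Cldn10 (11.01). Among genes named after their values were seen, nicotine 3 was high for Ly6h (7.99), Tmem35a (9.58), Ecel1 (9.70) and Pik3ca (10.65) and low for Ly6e (10.21), and nicotine 1 was high for Art1 (8.03). Water 4 was high for Bche (6.54) and water 2 for Chat (6.41).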

How the results depend on the processing

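No subunit gene passed in any of the 20 alternatives, with smallest adjusted p from 0.275 to 0.898 by limma. Over all genes, 0 passed in 19 of them and 469 with array weights, which gave nicotine 3 a weight of 0.046 and nicotine 1 one of 0.16. Chrna4, Chrna5, Chrna7, Chrna10, Chrnb2 and Chrnb4 kept a positive difference throughout, at varying size. Array weights gave 0.22 for Chrnb2, 0.21 for Chrna4 and 0.060 for Chrna5, the seminal vesicle covariate gave 0.75 for Chrnb2, and the difference was 0.011 for Chrna7 without nicotine 3 and 0.0039 for Chrnb4 without water 5. With array weights the sign changed for Chrna2 (-0.0057), Chrna3 (0.24) and Chrnb1 (0.16). Without nicotine 1 and 3 it changed for Chrna2 (-0.024), Chrna3 (0.12) and Chrnb1 (0.17). For Chrnb1 it also changed with quantile normalization again (0.0073), centred arrays (0.017) and the seminal vesicle marker mean as covariate (0.028). Leaving out 1 mouse at a time gave -0.30 to 0.053 for Chrna3, -0.14 to 0.14 for Chrnb1 and -0.0053 to 0.073 for Chrne, each with a change of sign (Chrna3 without water 1, water 2, nicotine 2 or nicotine 3, Chrnb1 without water 5 or nicotine 3, Chrne without water 3), and 0.17 to 0.91 for Chrna4, 0.22 to 0.74 for Chrna5 and 0.62 to 1.32 for Chrnb2, lowest without nicotine 3 for these 3 genes. The cause was not tested. With the mouse number as a replicate block, 0 subunit genes and 0 of all genes passed, and 1326 genes had an unadjusted p under 0.05 in place of 1842. Same-numbered mice did not deviate together (correlations from -0.12 to 0.16), and 1 of 5 water mice correlated best with its own number. Levels low on the array limit what can be read for Chrna2, Chrna5 and Chrna10.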

Other observations

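Kinase and arrestin genes reported to act downstream of nicotinic receptors were measured in 12 of 15 listed cases, with 0 past the test by limma, 4 positive and 8 negative. At an unadjusted p under 0.05 there were 2 higher and 2 lower, where 3.93% and 5.31% of all genes were. Pik3r1, the regulatory subunit of phosphoinositide 3-kinase, differed by -0.35 ± 0.11 log2 units (SE; limma adjusted p = 0.514), and its groups did not overlap. Akt1, the kinase downstream of it, differed by 0.25 ± 0.094, and the cytokine receptor kinase gene Jak2 by -0.69 ± 0.30, also without overlap, both with a limma adjusted p of 0.514. Groups that did not overlap in the lower direction made up 2.33% of all genes. Without nicotine 1 and 3 the values were -0.19, 0.13 and -0.19, and Pik3r1, Jak2 and Pik3ca (-0.12 ± 0.057 SE) did not overlap, all 3 lower, as did 5.19% of all genes.

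Other marker lists gave the following medians of the difference, with 0 genes past the test in each. Neuroendocrine markers had 1.02, with Chga (1.74 ± 0.93 SE) and Uchl1 (1.27 ± 0.69) as examples, and autonomic neuron markers 0.19, with Phox2a (0.31 ± 0.13). Proliferation markers had 0.92, with Tk1 (0.39 ± 0.069) and Mcm5 (0.47 ± 0.10), and skeletal muscle markers 0.46, with Neb (0.64 ± 0.46). Schwann cell markers had -0.0066, with Cdh19 (-0.33 ± 0.18). Luminal markers had -1.05, basal markers -0.14, with Krt5 (-0.32 ± 0.26), and smooth muscle markers -0.70, with Mylk (-0.61 ± 0.41). Seminal vesicle markers had -2.26, with Sva (-2.62 ± 1.88). Macrophage markers had -0.28, with Csf1r (-0.79 ± 0.18), T cell markers -0.045, with Cd3g (-0.54 ± 0.21), and endothelial markers -0.13, with Tek (-0.36 ± 0.12). Without nicotine 1 and 3 the median was 0.016 for neuroendocrine, 0.040 for skeletal muscle and 0.093 for autonomic neuron markers, and the sign turned for luminal (0.042), smooth muscle (0.095) and Schwann cell markers (0.051). It was 0.38 for proliferation, -0.33 for macrophage, -0.10 for T cell, -0.23 for endothelial, -0.015 for basal and -0.97 for seminal vesicle markers.

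Art1, which overlaps Chrna10 in the RefSeq table, was at 8.03 in nicotine 1 against 6.97 to 7.50 in the other 9 mice.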
